A study of Mus musculus with 54 samples.

Results

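Expression of 9 thick ascending limb genes, Umod, Egf, Slc12a1, Kcnj1, Bsnd, Wfdc15b, Tmem207, Ptger3 and Ppp1r1b, was followed through bulk RNA, dissociated cells and isolated nuclei of adult mouse kidney. The genes were taken from a list drawn up for this segment of the nephron and were 9 of the 33126 gene symbols listed across the series. The study asked how dissociation, storage and nuclei isolation alter the RNA profile of kidney, in 54 libraries that formed 18 groups of 3. Each group came from kidneys of 3 mice in biological triplicate. C57BL/6J males of 19 weeks were dissociated cold, with a Bacillus licheniformis protease on ice, or warm, with the Multi Tissue Dissociation Kit 2 at 37 °C. Suspensions were loaded fresh, cryopreserved in serum, RPMI and DMSO for 6 weeks, or fixed in methanol and stored for 3 months, on 10x droplets of chemistry version 2, and bulk libraries of the cold and warm suspensions were made with rRNA depletion from the cells left over. Balb/c males of 18 weeks gave cold fresh cells and nuclei (both version 2), and bulk libraries of intact kidney with rRNA depletion. Balb/c females of 15 weeks gave cold fresh cells, cold cells cryopreserved for 2 weeks and nuclei from 3 protocols (all version 3), and bulk libraries of intact kidney and of cold suspensions, both with poly(A) selection. Nuclei came from flash-frozen kidney and were cleaned by sorting on DAPI (FANS) or on a sucrose gradient without a sort. The sorted nuclei had 3 washes at 500g, named FANS 3x500g, or 1 wash at 2000g, named FANS 1x2000g. The study's methods give the C57 animals, from a single litter, the designation AFAPIL.1DEL without explaining it, and call the Balb/c females wild type former breeders. The C57 groups, the Balb/c males and the Balb/c females differ in strain or sex, age and batch, so that levels were tested only within an experiment.

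The thick ascending limb reabsorbs sodium chloride without water and so dilutes the urine and feeds the medullary gradient. Slc12a1 encodes the apical sodium, potassium and chloride cotransporter NKCC2 that loop diuretics block, Kcnj1 the potassium channel ROMK that returns potassium to the lumen, and Bsnd barttin, the subunit that basolateral chloride channels need. Umod encodes uromodulin, the most abundant protein of normal urine, and Egf the membrane precursor of epidermal growth factor, both made by cells of the thick limb and distal tubule. Wfdc15b encodes a small secreted protein of the whey acidic protein family, Ptger3 the prostaglandin E2 receptor EP3 and Ppp1r1b DARPP-32, a regulator of protein phosphatase 1. All 9 are protein-coding. On GRCm38, Umod lies at chr7:119462711-119479282 (minus strand), Egf at chr3:129677565-129755316 (minus) and Slc12a1 at chr2:125152505-125230002 (plus). Kcnj1 lies at chr9:32372493-32399197 (plus), Bsnd at chr4:106483456-106492283 (minus) and Wfdc15b, next to its paralog Wfdc15a, at chr2:164214454-164221660 (minus). Tmem207 lies at chr16:26503656-26526769 (minus), Ptger3 at chr3:157566892-157645888 (plus) and Ppp1r1b at chr11:98348404-98357796 (plus).

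The 10x libraries held 983522 to 35170947 UMIs, each UMI being 1 captured transcript molecule, over 782 to 9308 barcodes, with a median of 343 to 3893.5 UMIs per barcode. The bulk libraries held 2326998 to 31093949 counts. The male cells were the shallowest 10x group, at a median of 343 to 688 UMIs per barcode, and the female 3x500g and 1x2000g nuclei the deepest, at 3274 to 3893.5 UMIs. The counts of male cells and of nuclei held no mitochondrial genes, whereas those of the other cells did. Without mitochondrial genes the medians of warm methanol-fixed C57 cells were 625.5 to 699 UMIs, which overlapped with the male cells. For cells the authors counted exonic reads only, and for nuclei intronic and exonic reads, so that in any comparison of nuclei with cells the counting and the compartment cannot be told apart. Of 741 pairs of 10x libraries, 503 shared some barcode sequences. The largest number shared by a pair was 101. The largest share of the smaller library, taken separately over all pairs, was 2.05%. Levels are given as CPM, which for 10x libraries is the UMIs of a gene per 1000000 UMIs of all genes other than mitochondrial ones. For bulk libraries it is the counts of a gene per 1000000 counts, again without mitochondrial genes.

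Thick limb barcodes were seeded, that is first picked, from 11 other genes of the segment, among them Ppp1r1a, Sostdc1, Kng2, Cldn10, Cldn16, Cldn19, Tmem72, Enox1, Irx1 and Irx2. A barcode's own counts of the 9 genes took no part in its class. Each barcode was given the class, out of 15 marker-defined classes, under which its other counts were most likely. Of 175959 barcodes, 17889 were thick limb-like. Of these thick limb-like barcodes 69 lay near the boundary to another class, and barcodes of other classes near that boundary were not counted. Thick limb-like barcodes made up 2.66% ± 0.341 (SD, n = 3) of barcodes in C57 cold fresh cells, 6.36% ± 1.25 in warm fresh cells, 6.90% in female cold fresh cells, 12.2% in male nuclei and 18% in female 3x500g nuclei. The summed level of the markers was 4218 to 10251 CPM in thick limb-like barcodes and 115 to 1047 in all others. The markers set the class, so this is a description. Every marker with a UMI in the class was higher there than outside it in every library but the 3 of female 3x500g nuclei, where 10 of 11 were. In male cells, 9, 10 and 10 of 11 had a UMI in the class. The cold cryopreserved C57 cells were the thinnest group, with 60 thick limb-like barcodes in all, 11, 34 and 15 per library, and UMIs of 4, 7 and 6 of the 10 listed markers.

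Across the 14 classes that held barcodes in C57 cold fresh cells, 6 of the 9 genes had their highest summed level in the thick limb-like class with at least a 3-fold step to the next class, and the others were shared along the distal nephron. Slc12a1 stood at 8848 CPM in thick limb-like barcodes and at 32.3 in the next class, the intercalated cell-like barcodes, a 274-fold step. Tmem207 had 40 UMIs (98.3 CPM) in thick limb-like barcodes and 1 UMI (2.34 CPM) in distal convoluted tubule-like barcodes, which is under a floor of 3 UMIs, so no fold is given. The step of Ptger3 was 5.86-fold, that of Ppp1r1b 4.66-fold, of Umod 4.54-fold and of Egf 3.81-fold.

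**Figure D1:**
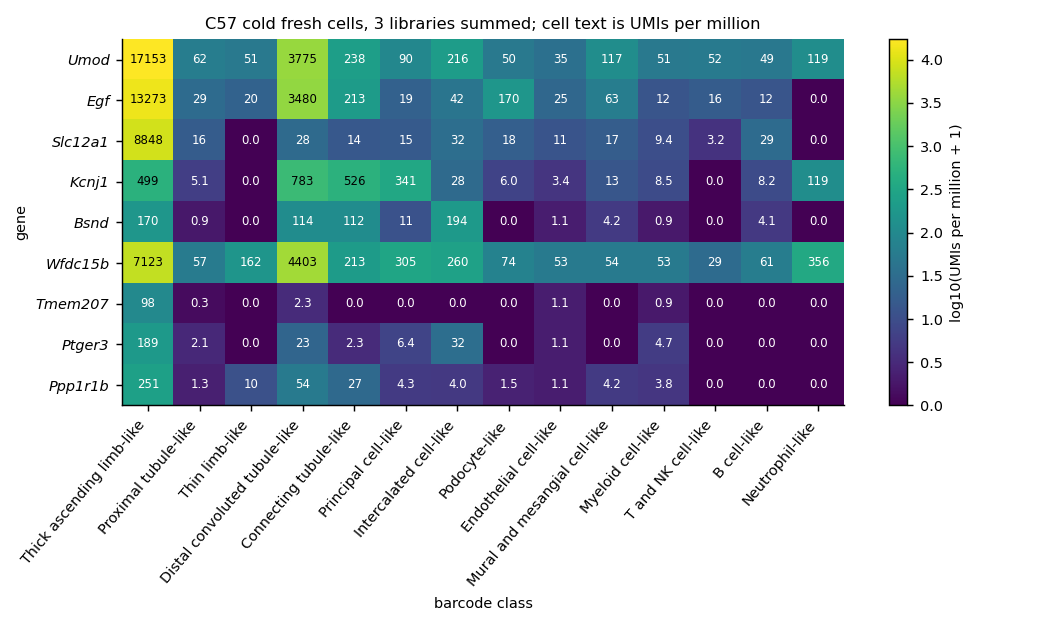
Levels of the 9 genes, in CPM summed over 3 libraries, in each barcode class of C57 cold fresh cells, with color giving log10 of the level plus 1. Slc12a1 is at 8848 in the thick limb-like column and 32.3 in the next, whereas Umod, Egf, Wfdc15b and Kcnj1 also stand out in the distal convoluted tubule-like column.

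Umod and Egf were both high in distal convoluted tubule-like barcodes, the segment just downstream. Umod reached 4077, 4348 and 2926 CPM there against 20051, 17085 and 15295 in the thick limb-like barcodes of the same libraries, a mean of 21.6% of the thick limb level (19.1 to 25.5%). Egf reached 3700, 3339 and 3412 against 11908, 15193 and 12038, or 27.1%. The class levels did not overlap for either gene. In other groups Egf in distal convoluted tubule-like barcodes made up 49.5% (C57 warm fresh cells), 55.0% (female cold fresh cells) and 68.5% (male nuclei) of its thick limb level, whereas Slc12a1 made up 0.31% in C57 cold fresh cells, 0.421% in female cold fresh cells and 9.75% in male nuclei. Wfdc15b was at 7123 and 4403, a step of only 1.62-fold.

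Kcnj1 was not highest in the thick limb-like class in these cells. It was higher in the distal convoluted tubule-like barcodes, at 977.5, 744 and 636 CPM against 410, 502 and 554 in the thick limb-like ones, and 20.3% of its UMIs fell in thick limb-like barcodes. ROMK is known along the distal nephron as well as in the thick limb. The same order was seen in female cold fresh cells, where Kcnj1 stood at 1055, 1016 and 1012 against 571, 541 and 593. Bsnd stood at 92.3, 208 and 178 in thick limb-like and 264, 198 and 153 in intercalated cell-like barcodes of the same libraries, levels that overlapped, and chloride channels with barttin are known in both. For Slc12a1, 94.0% of UMIs fell in thick limb-like barcodes, for Tmem207 86.9%, for Umod 72.7%, for Egf 71.2%, for Ppp1r1b 64.1%, for Ptger3 58.2% and for Wfdc15b 49.4%.

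The genes whose profile over the 14 classes was most like the mean of the 9 were Erbb4, a receptor of the EGF receptor family, with a Pearson r of 0.943, Fgf9, a fibroblast growth factor (0.936), Gpx6 (0.931), Cacnb4, a calcium channel subunit (0.923), and Col5a2, a collagen chain (0.915). These were taken from 1510 genes with at least 100 CPM in thick limb-like barcodes. The 14 points share libraries and depth, and the class sizes ranged from 15 neutrophil-like to 7669 proximal tubule-like barcodes.

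In bulk RNA, where reads cover the whole transcript and levels can be compared between genes per length, Umod was the highest of the 9 in each of the 5 groups. In C57 cold suspensions it stood at 4711 ± 53.6 transcripts per 1000000, scaled by exon length (TPM; mean ± SD, n = 3), with Egf at 1184 ± 31.9 and Slc12a1 at 1099 ± 63.8, which did not differ beyond their spread. Wfdc15b followed at 512 ± 27.1, Kcnj1 at 333 ± 30.6 and Bsnd at 81.9 ± 4.1. Ptger3 at 50.4 ± 12.4 lay above Ppp1r1b at 37.4 ± 1.51 with no overlap of libraries, and Tmem207 was lowest at 18.6 ± 1.76. In intact female kidney the order was Umod (4849 ± 339), Slc12a1 (1385 ± 181), Wfdc15b (1027 ± 98.1) and Egf (899 ± 84.6), with ranges of the last pair that overlapped but Wfdc15b above Egf in each of the 3 libraries. Male intact kidney, made with rRNA depletion, had Umod at 3448 ± 260 TPM and Slc12a1 at 878 TPM. The rank of Egf in TPM depends on the length used, the union of all its annotated exons. That union was 11275 bases for Egf, 5763 for Slc12a1 and 572 for Wfdc15b. Before scaling by length, Egf stood at 3270 CPM and Slc12a1 at 1552 CPM in C57 cold suspensions.

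Warm dissociation left more RNA of most of the 9 genes in the bulk suspensions than cold dissociation. Slc12a1 was at 1501, 1489 and 1666 CPM in the 3 cold and at 2016, 2637 and 2286 in the 3 warm libraries, Umod at 3110, 3238 and 3222 against 3671, 4082 and 4498, and Kcnj1 at 273, 295 and 246 against 361, 423 and 449. For these genes every warm library lay above every cold one. Of the 9 genes, 7 rose and none fell, where 8.68% of the 14102 genes tested were called, 5.42% higher and 3.26% lower. The members' median log2 fold change was 0.55, against -0.01 over all genes tested.

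The transport genes Kcnj1 (log2 fold change 0.58 ± 0.09 SE, edgeR adjusted p = 0.00151), Slc12a1 (0.55 ± 0.10, adjusted p = 0.0059) and Bsnd (0.56 ± 0.11, adjusted p = 0.00901) rose by similar amounts. Tmem207 rose most, by 0.79 ± 0.16 (adjusted p = 0.00766), from 13.2, 11.1 and 12.4 to 18, 26.5 and 20.6 CPM. Ppp1r1b rose by 0.63 ± 0.10 (adjusted p = 0.00206) and Wfdc15b by 0.46 ± 0.09 (adjusted p = 0.00612). The call of Umod (0.33 ± 0.09, adjusted p = 0.0453) was lost when any of 5 libraries was left out, all but warm replicate 1, with adjusted p from 0.068 to 0.145. Egf, at 3299, 3316 and 3196 against 3722, 4410 and 4215 CPM, lay just above the threshold of 0.05 at 0.31 ± 0.09 (edgeR adjusted p = 0.05) and passed it without warm replicate 1 (0.39, adjusted p = 0.0286) or when scaled by library totals in place of TMM (0.34, adjusted p = 0.0241). Ptger3 was the one gene whose groups overlapped, at 58.2, 61.8 and 90.8 against 84.4, 116 and 105 (0.52 ± 0.16, adjusted p = 0.0685), and it passed without cold replicate 3 (0.76, adjusted p = 0.0048) or warm replicate 1 (0.64, adjusted p = 0.0497), or with library totals (0.54, adjusted p = 0.0441).

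**Figure D2:**
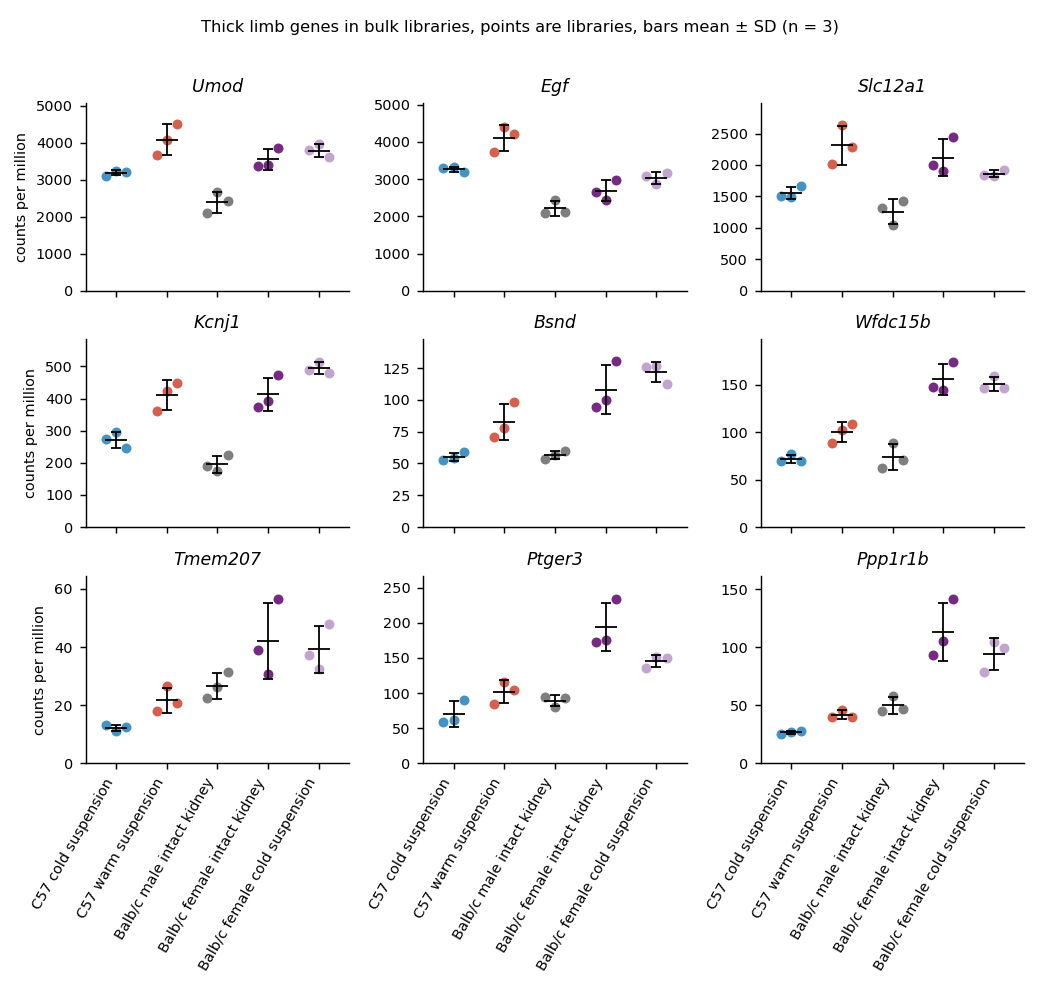
CPM of each gene in the 15 bulk libraries, with points for libraries and bars for mean ± SD (n = 3) and each axis starting at 0. The C57 warm suspensions lie above the cold ones for every gene but Ptger3, whose groups overlap, and the female intact kidneys overlap with the cold suspensions for most genes.

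Among the listed genes of the segment, those that passed the test in the warm suspensions were all higher, where 5.42% of all genes were higher. Of 12 listed salt transport genes tested, 5 rose and none fell. Of 4 claudins tested 2 rose (Cldn3, 1.42). Of 7 receptor and signalling genes 5 rose (Avpr2, the vasopressin V2 receptor, 1.29), and of 8 transcription factors 5 rose (Tfap2b, 0.66), with none lower in any list. Avpr2 also served here as a marker of the principal cell class. Bulk RNA sums all segments, and from which of them these rises came was not tested. In bulk RNA, fewer cells of a type and less RNA per cell cannot be told apart. In the 10x libraries of the same suspensions the thick limb-like share of barcodes was 2.29 to 2.96% in the cold and 5.38 to 7.76% in the warm libraries, and its part in the bulk differences was not tested.

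Intact female kidney and cold suspensions held similar amounts of most of these RNAs. Umod was at 3381, 3404 and 3868 CPM in intact kidney and 3796, 3966 and 3607 in suspensions, and Slc12a1 at 1998, 1899 and 2451 against 1848, 1820 and 1923. The ranges of both genes overlapped. Ptger3 was the 1 gene of the 9 that was called, at 172, 176 and 234 in intact kidney and 136, 152 and 150 in suspensions (log2 fold change 0.46 ± 0.10, edgeR adjusted p = 0.012), where 20% of 16538 genes were called, 12.1% higher and 7.91% lower. Without cold suspension replicate 1 that call was lost (0.40, adjusted p = 0.0542), and without intact replicate 3 Kcnj1 (-0.31, adjusted p = 0.00501) and Bsnd (-0.27, adjusted p = 0.0168) were called lower in intact kidney. The difference of Kcnj1 was otherwise -0.22 ± 0.08 (adjusted p = 0.0797).

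Of the listed pathway genes in that comparison, 3 of 12 salt transport genes were lower in intact kidney and none higher, and 1 of 5 claudins was higher (Cldn3, 0.84). Of 8 receptor genes 1 was higher and 1 lower, and 4 of 8 transcription factors were higher and none lower, with Irx3 at 1.23 and Irx1 at 1.04. Over all genes tested 12.1% were higher and 7.91% lower.

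Within thick limb-like barcodes of fresh C57 cells, warm dissociation raised 3 of the lower expressed genes and lowered Bsnd, while Slc12a1, Egf, Umod, Wfdc15b and Kcnj1 did not pass the test. Tmem207 was at 154, 79.6 and 82.1 CPM in cold and 356, 266 and 225 in warm libraries (log2 fold change 1.44 ± 0.27, edgeR adjusted p = 0.00274). Ptger3 went from 144, 214 and 192 to 400, 383 and 332 (0.95 ± 0.20, adjusted p = 0.00768), and Ppp1r1b from 267, 251 and 240 to 586, 360 and 508 (0.89 ± 0.20, adjusted p = 0.00912). The warm libraries lay above the cold ones for each of these 3 genes. In all, 4 of the 9 genes were called, where 4.93% of 2719 genes were, 2.65% higher and 2.28% lower. Without cold replicate 2, Tmem207 (1.27, adjusted p = 0.0625) and Ppp1r1b (0.89, adjusted p = 0.0881) were not called.

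Slc12a1 was at 7877, 9445 and 8828 CPM in cold and 6402, 7352 and 6726 in warm thick limb-like barcodes (-0.38, edgeR adjusted p = 0.0981), Egf at 11908, 15193 and 12038 against 6254, 10622 and 9715 (-0.58 ± 0.17, adjusted p = 0.0532), and Umod at 20051, 17085 and 15295 against 14387, 14393 and 18600 (-0.17, adjusted p = 0.536). The warm libraries lay below the cold ones for Slc12a1 and Egf without passing the test, and overlapped with them for Umod. Egf passed without cold replicate 1 (-0.63, adjusted p = 0.0404) or warm replicate 2 (-0.73, adjusted p = 0.0163) or with library totals (-0.59, adjusted p = 0.0357), and Slc12a1 without cold replicate 1 (-0.44, adjusted p = 0.0369). Bsnd, at 92.3, 208 and 178 against 98.6, 63.8 and 95.4, overlapped between groups and was called lower at -1.04 ± 0.29 (adjusted p = 0.0479), a call lost without cold replicate 2 (0.342) or 3 (0.163) or warm replicate 2 (0.17) or 3 (0.0732). Thick limb-like barcodes held a median of 965 to 1329 UMIs in cold and 633 to 774 in warm libraries, and the part of this difference was not tested.

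Among the other genes of the segment in the same barcodes, 2 of 9 salt transport genes rose and 3 fell, with the kinase Wnk1 at -1.39. Of 3 claudins 1 rose (Cldn10, 1.30), of 5 receptor genes 1 fell (Pth1r, the parathyroid hormone receptor, -1.29), and none of 7 transcription factors passed. Over all genes tested 2.65% were higher and 2.28% lower. Cldn10, Cldn16, Cldn19, Ppp1r1a, Irx1, Irx2 and 1 gene of the salt transport list had also served as markers to seed the class. The other genes of these lists entered the likelihood by which each barcode was given its class. Counts of these lists within the class, here and in the comparisons that follow, are therefore not independent of it.

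**Figure D3:**
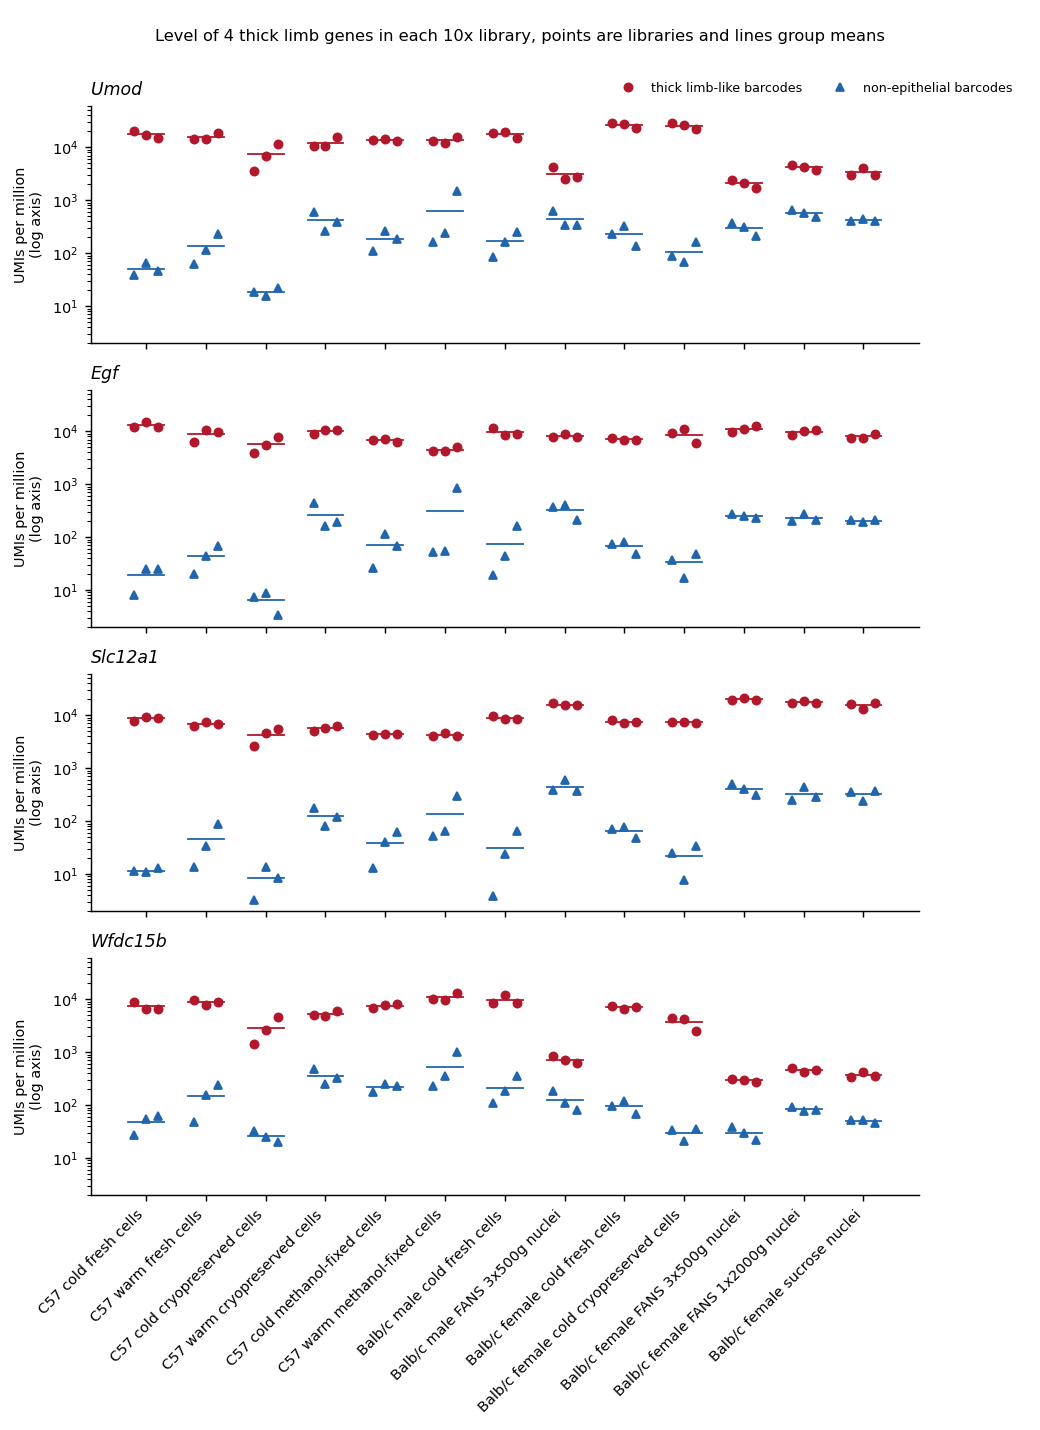
Level of Umod, Egf, Slc12a1 and Wfdc15b in each of the 39 10x libraries on a log axis, in thick limb-like (circles) and non-epithelial (triangles) barcodes, with lines at the group means. Circles of Umod and Wfdc15b are lower in the 4 groups of nuclei than in fresh cells of the same experiment and those of Slc12a1 are higher, and the group means of the triangles are lowest in cold cryopreserved C57 cells for all 4 genes.

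After cryopreservation of cold C57 cells, the main products of the thick limb were lower in the thick limb-like barcodes that remained. Umod stood at 3533, 6780 and 11693 CPM against 20051, 17085 and 15295 fresh (log2 fold change -1.26 ± 0.32, edgeR adjusted p = 0.0224), Slc12a1 at 2606, 4559 and 5393 (-1.05 ± 0.25, adjusted p = 0.016) and Egf at 3823, 5565 and 7956 (-1.18 ± 0.27, adjusted p = 0.0103). No stored library reached the fresh range for these genes. The summed level of the markers that set the class was also lower, at 4981, 5027 and 4218 CPM in stored against 8492, 8429 and 7514 in fresh libraries, and its part in these differences was not tested. Wfdc15b was at 1448, 2642 and 4645 against 9036, 6556 and 6481 (-1.34 ± 0.30, adjusted p = 0.00911). Ptger3 had no UMI in the 3 stored libraries and 77 UMIs in the fresh ones, so it was at least 4.97-fold lower against a floor of 3 UMIs over the group (adjusted p = 0.00725), and Tmem207 had none against 40 UMIs, at least 2.58-fold lower, and was not tested.

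These calls made 5 of 8 genes tested, all lower, where 8.88% of 1092 genes were called, 4.85% higher and 4.03% lower. Kcnj1 (-0.83, edgeR adjusted p = 0.137) and Bsnd (0.28, adjusted p = 0.765) did not pass. Without cold cryopreserved replicate 2, which held 34 of the 60 barcodes, none of Umod (-1.45), Egf (-1.41), Slc12a1 (-1.38), Wfdc15b (-1.51) and Ptger3 was called by edgeR (adjusted p 0.0549 to 0.111), with these log2 fold changes no smaller than those over all libraries. None was called when the deepest 5% of barcodes were left out. The call of Umod was also lost without cold fresh replicate 1 (0.0629) or 2 (0.0562). Of the listed genes, 2 of 7 salt transport genes were lower, among them the sodium pump subunit Atp1b1 (-0.97), and none of 2 claudins, 4 receptor genes and 2 transcription factors passed.

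After cryopreservation of warm C57 cells Slc12a1 and Umod did not pass the test. Slc12a1 was at 5014, 5806 and 6342 CPM against 6402, 7352 and 6726 fresh (log2 fold change -0.09, edgeR adjusted p = 0.671), and Umod at 10448, 10382 and 15892 against 14387, 14393 and 18600 (-0.20, adjusted p = 0.399). For Slc12a1 every stored library lay below every fresh one. Of the 9 genes, 4 were called, all lower, where 14.5% of 2391 genes were called, 8.03% higher and 6.48% lower. The summed level of the markers that set the class was 6726, 7000 and 7239 CPM in stored against 9600, 7748 and 9090 in fresh libraries. The part of this shift of the markers in the calls was not tested. With library totals the split of all genes turned from 192 higher and 155 lower to 123 higher and 290 lower, with the median log2 fold change moving from -0.01 to -0.16. Wfdc15b fell from 9551, 7791 and 8915 to 5058, 4926 and 5983 (-0.55 ± 0.11, adjusted p = 0.00313), Ptger3 by 0.82 ± 0.21 (adjusted p = 0.0143) to 188, 147 and 217, Ppp1r1b by 0.70 ± 0.22 (adjusted p = 0.0359) to 320, 248 and 224, and Tmem207 by 0.88 ± 0.28 (adjusted p = 0.0389) to 77.3, 180 and 142. No stored library of these 4 genes reached the fresh range.

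Of these, only the call of Wfdc15b held without each library in turn and with the suspension as a block. In a fit over the 4 groups of fresh and cryopreserved C57 cells with 1 scaling, Wfdc15b was at -0.56 (edgeR adjusted p = 0.0767) and Ppp1r1b at -0.71 (adjusted p = 0.0599). The call of Tmem207 was lost with the suspension as a block (edgeR, -0.85, adjusted p = 0.065) and without fresh replicate 1 or 2 or cryopreserved replicate 1 or 3 (0.0521 to 0.157), that of Ppp1r1b without fresh replicate 1 or cryopreserved replicate 2 or 3 (0.0829 to 0.203), and that of Ptger3 without cryopreserved replicate 2 (0.0602). Egf, at 8946, 10642 and 10642 CPM against 6254, 10622 and 9715, differed by 0.34 (adjusted p = 0.155), with the block by 0.38 (adjusted p = 0.041) and without fresh replicate 2 by 0.50 (adjusted p = 0.0303). Among the listed genes 3 of 9 salt transport genes rose (Wnk1, 1.43) and 2 fell, 1 of 3 claudins fell (Cldn10, -0.91), 2 of 5 receptor genes rose (Pth1r, 1.14) and 1 of 6 transcription factors rose. Over all genes tested 8.03% were higher and 6.48% lower.

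In the female cells, cryopreservation lowered 3 of 8 genes tested, where 4.69% of 7469 genes were called, 1.79% higher and 2.89% lower. With library totals that split turned from 134 higher and 216 lower to 223 higher and 121 lower, and the calls of the 3 genes held. Wfdc15b stood at 4511, 4262 and 2486 CPM against 7536, 6610 and 7289 fresh (log2 fold change -1.02 ± 0.17, edgeR adjusted p = 0.000405), Ppp1r1b at 122, 180 and 69.8 against 255, 302 and 316 (-1.17 ± 0.19, adjusted p = 0.000244) and Ptger3 at 334, 287 and 401 against 562, 444 and 535 (-0.75 ± 0.15, adjusted p = 0.00304). The groups of these 3 genes did not overlap. Umod, at 29355, 25861 and 21862 against 28416, 27321 and 23064, and Slc12a1, at 7316, 7516 and 7223 against 8125, 7101 and 7417, overlapped with the fresh cells (-0.13, adjusted p = 0.726, and -0.15, adjusted p = 0.645). Ptger3 was not called without cryopreserved replicate 2 (0.0614), and Bsnd was called higher without cryopreserved replicate 1 (0.65, adjusted p = 0.0364). Of 11 salt transport genes 2 were higher (Wnk1, 0.88) and 1 lower (Fxyd2, a sodium pump regulator, -1.09), of 4 claudins 1 was lower, of 7 receptor genes 1 was higher and of 6 transcription factors none passed.

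Methanol fixation lowered Slc12a1 and Egf in thick limb-like barcodes of both C57 suspensions. In the cold arm Slc12a1 went from 7877, 9445 and 8828 to 4197, 4397 and 4463 CPM (log2 fold change -1.09 ± 0.13, edgeR adjusted p = 1.02e-05) and Egf from 11908, 15193 and 12038 to 6931, 7137 and 6304 (-1.03 ± 0.13, adjusted p = 2.4e-05). In the warm arm Slc12a1 went from 6402, 7352 and 6726 to 4091, 4587 and 4003 (-0.75 ± 0.12, adjusted p = 0.00146) and Egf from 6254, 10622 and 9715 to 4305, 4235 and 4998 (-1.06 ± 0.17, adjusted p = 0.00133). Every fixed library lay below every fresh one for both genes, and both calls held without each library in turn.

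Wfdc15b moved little with fixation, at 6969, 7822 and 8079 CPM in cold fixed against 9036, 6556 and 6481 in cold fresh cells (log2 fold change -0.02, edgeR adjusted p = 0.914) and 9953, 9871 and 13005 against 9551, 7791 and 8915 in the warm arm (0.25, adjusted p = 0.193). Umod was called lower in the cold arm, at 13958, 14640 and 12925 against 20051, 17085 and 15295 (-0.42 ± 0.12, adjusted p = 0.0179), a call lost without fresh replicate 2 or any fixed replicate (0.0763 to 0.0973). It was at -0.28 in the warm arm (adjusted p = 0.177), and passed without fresh replicate 1 (-0.39, adjusted p = 0.0497). In the cold arm Bsnd was called lower without fresh replicate 1 (-0.90, adjusted p = 0.032). In all, 3 of the 9 genes were called in the cold arm, where 23.0% of 2263 genes were, 10.2% higher and 12.8% lower. Of the warm arm 2 of 9 were called, where 10.4% of 2326 genes were, 5.50% higher and 4.94% lower.

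Of 9 salt transport genes tested in cold fixed cells 1 was higher and 5 were lower (Wnk4, -1.42; Wnk1, -1.31), where 10.2% of all genes were higher and 12.8% lower, and 2 of 5 transcription factors fell (Tfap2b, -1.36; Pou3f3, -1.22). Of 3 claudins 1 rose and of 5 receptor genes 1 fell. In the warm arm 1 of 10 salt transport genes was higher (Fxyd2, 0.49) and 1 lower (Atp1b1, -0.68), none of 3 claudins or 4 receptor genes passed, and 1 of 3 transcription factors was lower. Over all genes tested in that arm 5.50% were higher and 4.94% lower. The fresh libraries of each arm served as the reference for both kinds of storage and for the comparison of warm with cold cells, so these comparisons share samples.

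In nuclei the balance of the 9 genes was different from that in cells. Slc12a1, Tmem207 and Ptger3 were higher in thick limb-like nuclei than in thick limb-like cells of both Balb/c sexes, and Umod, Wfdc15b and Bsnd were lower. Kcnj1 was lower too, in females by an amount that depended on the scaling. Umod was at 18439, 19416 and 14734 CPM in male cells and 4174, 2549 and 2733 in male nuclei (log2 fold change -2.52 ± 0.24, edgeR adjusted p = 1.48e-09), and at 28416, 27321 and 23064 in female cells and 2438, 2126 and 1681 in female 3x500g nuclei (-4.05 ± 0.14, adjusted p = 2.6e-14). Wfdc15b was at 8627, 11916 and 8644 against 836, 709 and 628 in males (-3.80 ± 0.23, adjusted p = 4.44e-13) and 7536, 6610 and 7289 against 310, 298 and 278 in females (-4.98 ± 0.11, adjusted p = 4.92e-17). No library of nuclei came near those of cells for these secreted products. The summed level of the markers that set the class was lower in nuclei as well. It was 4707, 4875 and 4723 CPM in male nuclei against 9022, 7961 and 8148 in male cells. In females it was 4693, 5027 and 4861 in 3x500g nuclei against 8979, 7809 and 9271 in cells. The part of this shift of the markers in the differences was not tested.

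Slc12a1 was at 9499, 8694 and 8375 CPM in male cells and 17168, 15349 and 15447 in male nuclei (log2 fold change 0.81 ± 0.20, edgeR adjusted p = 0.00132), and at 8125, 7101 and 7417 in female cells and 19068, 21350 and 19746 in female nuclei (1.02 ± 0.10, adjusted p = 2.24e-08). Every library of nuclei lay above every library of cells. Ptger3 was at 232, 324 and 213 against 637, 1003 and 681 in males (1.49 ± 0.25, adjusted p = 1.48e-05) and 562, 444 and 535 against 1549, 1061 and 1126 in females (0.90 ± 0.14, adjusted p = 1.24e-05). Tmem207 was at 263, 196 and 305 against 500, 747 and 493 in females (0.81 ± 0.16, adjusted p = 0.000137). In males it was at 0, 85.2 and 0 against 827, 690 and 724 (4.24 ± 0.43, adjusted p = 4.69e-09), where the size of the fold depends on the near absence in cells.

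Egf was at 11312, 8626 and 8886 CPM in male cells and 7860, 8796 and 7834 in male nuclei (log2 fold change -0.27, edgeR adjusted p = 0.235), and at 7588, 6704 and 6782 against 9737, 11259 and 12742 in females (0.29 ± 0.11, adjusted p = 0.0199), a call lost without female cell replicate 2 or 3 or nuclei replicate 3 (0.0582 to 0.0916). Every library of female nuclei lay above every library of female cells. With library totals the female difference of Egf was 0.68 (adjusted p = 1.63e-05), and in a fit over the 4 groups with 1 scaling 0.83 (adjusted p = 5.57e-06). Kcnj1 was lower in nuclei by 0.85 ± 0.21 in males (adjusted p = 0.0012) and 0.65 ± 0.09 in females (adjusted p = 5.29e-06), and in males not without cell replicate 2 (0.0634) or nuclei replicate 3 (0.0727). In females Kcnj1 was at -0.27 with library totals (edgeR adjusted p = 0.0119) and at -0.11 in the fit over 4 groups (adjusted p = 0.387), where it was not called. Bsnd, at 300, 111 and 213 against 112, 115 and 105 in males, overlapped and was called at -0.86 ± 0.28 (adjusted p = 0.00886), which was lost without cell replicate 1 or any replicate of nuclei (0.0848 to 0.226). In females Bsnd went from 123, 131 and 151 to 66.2, 71.8 and 53.9 (-1.46 ± 0.12, adjusted p = 5.56e-09). Ppp1r1b was lower in female nuclei, at 80.7, 102 and 64.6 against 255, 302 and 316 (-2.21 ± 0.13, adjusted p = 5.7e-11), and differed by -0.35 in males (adjusted p = 0.242).

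These calls stand against a wide background. In males 7 of the 9 genes were called, 3 higher and 4 lower, where 64.6% of genes were called, 38.9% higher and 25.6% lower, and the median log2 fold change over all genes was 0.49. In females all 9 were called, 4 higher and 5 lower, where 81.5% of genes were called, 43.5% higher and 38.0% lower, and the median was 0.16. With library totals the medians were 0.60 in males and 0.55 in females, and in the fit over the 4 groups 0.66 and 0.69, so the fold changes of female nuclei moved most with the scaling. The other 8 genes kept their calls in females under both, and the 7 called in males kept theirs.

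**Figure D4:**
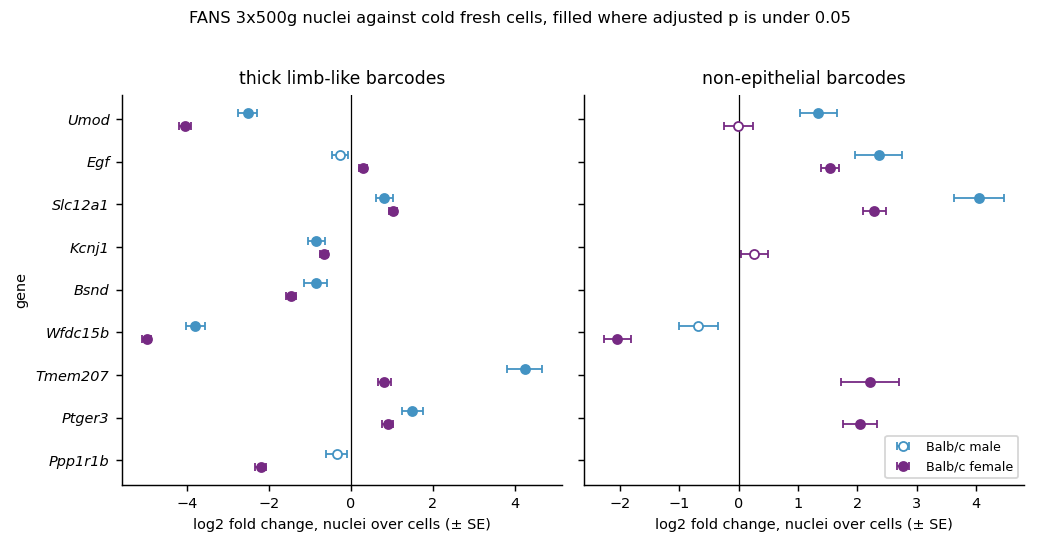
Log2 fold change ± SE of FANS 3x500g nuclei over cold fresh cells for each gene, in thick limb-like and non-epithelial barcodes, with filled points where the adjusted p is under 0.05. In the thick limb-like panel Umod and Wfdc15b lie furthest left in both sexes, and in the non-epithelial panel Slc12a1 and Egf lie right of 0 in both.

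The other genes of the segment split as well. Over all genes tested 38.9% were higher and 25.6% lower in males, and 43.5% and 38.0% in females. In male thick limb-like nuclei 3 of 11 salt transport genes were higher (the kinase Stk39, 2.53, and Slc9a3, the apical sodium and proton exchanger, with 0 UMIs in cells and 375 in nuclei, so that its fold depends on the prior count) and 4 lower (Atp1b1, -2.53), and in females 3 of 11 were higher (Slc9a3, 5.72) and 7 lower (Fxyd2, -3.55). Claudins were lower for 2 of 3 in males (Cldn16 and Cldn10, both used to seed the class) and 5 of 5 in females (Cldn14, -4.91), with none higher. Receptor genes were higher for 3 and lower for 2 of 6 in males (Casr, the calcium-sensing receptor, 3.99, from 7 UMIs in cells) and higher for 3 and lower for 5 of 8 in females (Casr, 2.49; Pth1r, -3.11; Calcr from 3 UMIs in cells to 227 in nuclei). Transcription factors were higher for 4 and lower for 2 of 7 in males (Esrrg, 4.87; Esrrb, 3.57, from 7 UMIs in cells; Irx1, -2.43) and higher for 4 and lower for 3 of 7 in females (Esrrg, 6.28; Esrrb, 3.27). Irx1 had also served to seed the class, and the other listed genes entered the likelihood that assigned it.

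Between nuclei protocols in females, Umod and Wfdc15b were the genes that moved in both comparisons. Umod was at 2438, 2126 and 1681 CPM in 3x500g nuclei, 4653, 4283 and 3727 in 1x2000g nuclei (log2 fold change 1.05 ± 0.13, edgeR adjusted p = 9.49e-05) and 2978, 4102 and 3006 in sucrose nuclei (0.72 ± 0.14, adjusted p = 0.00127). Wfdc15b was at 310, 298 and 278, then 510, 417 and 457 (0.67 ± 0.09, adjusted p = 0.000221) and 347, 427 and 349 (0.37 ± 0.10, adjusted p = 0.00736). For both genes the 3x500g nuclei had the lowest values of the 3 protocols, with no overlap. Both comparisons use the same 3x500g libraries. The 3x500g and 1x2000g protocols differ in the number of washes as well as in spin speed, and these cannot be told apart.

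Against 3x500g nuclei, 2 of the 9 genes were called in 1x2000g nuclei, where 26.8% of genes were called, 16.8% higher and 10.0% lower. In sucrose nuclei 7 of 9 were, where 38.9% of genes were called, 20.5% higher and 18.4% lower. In sucrose nuclei Slc12a1 was at 16312, 13020 and 17186 CPM against 19068, 21350 and 19746 (log2 fold change -0.34 ± 0.11, edgeR adjusted p = 0.0246), Egf fell by 0.46 ± 0.11 (adjusted p = 0.00487), Ptger3 by 0.57 ± 0.13 (adjusted p = 0.00361) and Bsnd by 0.54 ± 0.13 (adjusted p = 0.00415). Tmem207 rose by 0.33 ± 0.12 (adjusted p = 0.0493) and was not called without any 1 of 5 libraries (0.0692 to 0.193) or with library totals (0.29, adjusted p = 0.0879), with which Ppp1r1b was called (-0.40, adjusted p = 0.0491). Ppp1r1b was also called lower in sucrose nuclei without 3x500g replicate 3 (-0.51, adjusted p = 0.0105) or sucrose replicate 1 (-0.50, adjusted p = 0.0312), and in 1x2000g nuclei without 3x500g replicate 3 (-0.39, adjusted p = 0.0293). Without sucrose replicate 2, Slc12a1 (0.0933) and Wfdc15b (0.0512) were not called. In 1x2000g nuclei Tmem207 was at 651, 929 and 690 against 500, 747 and 493 (0.42, adjusted p = 0.0611), and passed without 3x500g replicate 2 (0.61, adjusted p = 0.00712) or 1x2000g replicate 1 (0.50, adjusted p = 0.0421).

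Of the listed genes, 1 of 11 salt transport genes was higher and 2 lower in 1x2000g nuclei, 2 of 4 claudins higher, 2 of 8 receptor genes higher and 1 lower, and 1 of 8 transcription factors lower. In sucrose nuclei 1 of 11 salt transport genes was higher and 5 lower, 2 of 4 claudins higher, 3 of 8 receptor genes higher and 1 lower, and 3 of 8 transcription factors lower. Over all genes tested 16.8% were higher and 10.0% lower in 1x2000g nuclei, and 20.5% and 18.4% in sucrose nuclei.

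UMIs of the 9 genes were also found in barcodes outside the thick limb-like class. Whether the cells in those barcodes make any of the 9 themselves was not tested. The non-epithelial barcodes, which joined the endothelial, mural, fibroblast, myeloid, T and NK, B cell and neutrophil-like classes, numbered 31346. RNA free in the droplets, barcodes that hold more than 1 cell and wrong assignments cannot be told apart in these counts. In C57 cold fresh cells, Umod stood at 38.7, 64.3 and 46.0 CPM in non-epithelial barcodes, a mean of 0.29% of its thick limb level in the same libraries (0.193 to 0.376%), and Slc12a1 at 11.3, 10.7 and 13.0, or 0.135%. In proximal tubule-like barcodes Umod was at 0.361% and Slc12a1 at 0.185% of the thick limb level. The level outside the class was thus below 1 part in 100 of that inside it for both genes and both kinds of barcode.

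In nuclei the level outside the class was a larger part of the level inside it than in fresh cells of the same experiment, and that part differed between genes. The percentage moves with the level inside the class as well as outside it. In female 3x500g nuclei Umod and Wfdc15b were lower inside the class than in cells. Outside it, as given below, Umod did not pass the test there and Wfdc15b was lower. In male nuclei Umod was lower inside the class and higher outside it. Umod in non-epithelial barcodes was 13.7% of the thick limb level in male nuclei (12.7 to 14.9%) against 1.00% in male cells (0.65% without replicate 3), and 14.1%, 13.7% and 12.6% in female 3x500g, 1x2000g and sucrose nuclei against 0.864% in female cells. Wfdc15b was at 16.9% in male nuclei and 10.1%, 18.1% and 13.5% in the female ones. Slc12a1 was at 2.83% in male and 2.05%, 1.83% and 2.05% in female nuclei against 0.367% (0.159% without male replicate 3) and 0.863% in cells, and Egf at 4.01%, 2.31%, 2.33% and 2.56% against 0.842% (0.34% without male replicate 3) and 0.96%. Bsnd stood at 10.6 to 13.8%, the highest in male nuclei, where it was 7.53% without replicate 2, and Kcnj1 at 6.18 to 10.0% over the 4 groups of nuclei, and Tmem207 (1.48 to 2.5%) and Ptger3 (3.03 to 3.99%) were nearer to Slc12a1. In warm cryopreserved C57 cells Egf was at 2.74% (1.65% without replicate 1), Slc12a1 at 2.27% (1.63%) and Umod at 3.56% (2.49%). In warm methanol-fixed cells the means of 6.49% for Egf, 3.39% for Slc12a1 and 4.14% for Umod rested on replicate 3, and without it they were 1.24%, 1.34% and 1.62%. The lowest percentage of Umod in a library of nuclei, 11%, was above the highest of Slc12a1, 3.83%.

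The share of Umod UMIs that fell in thick limb-like barcodes was 77.6% in male cells and 46.9% in male nuclei, where 33.4% fell in the far more numerous proximal tubule-like barcodes. It was 83.1% in female cells and 67.7%, 61.8% and 59.8% in the female nuclei. For Slc12a1 it was 91.6% in male cells, 77.9% in male nuclei, 93.9% in female cells and 92.6%, 93.4% and 89.0% in female nuclei.

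**Figure D5:**
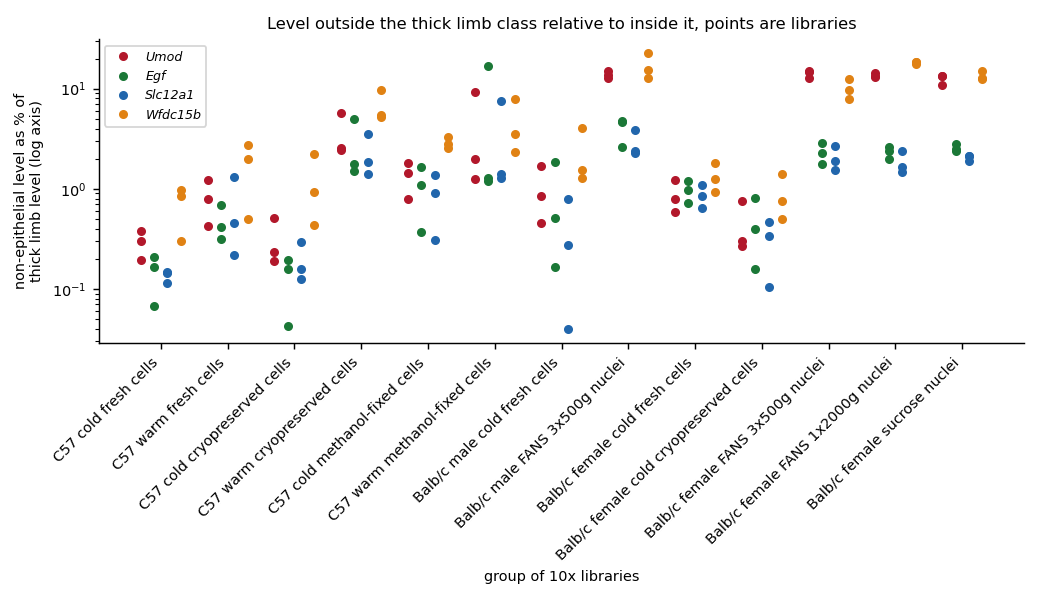
Level in non-epithelial barcodes as a percentage of that in thick limb-like barcodes of the same library, on a log axis, for Umod, Egf, Slc12a1 and Wfdc15b. The 12 libraries of nuclei have Umod and Wfdc15b above Egf and Slc12a1, and every value of C57 cold fresh cells is below 1%.

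Non-epithelial levels were then compared between groups in the same way as the thick limb ones. In warm against cold fresh C57 cells Umod was at 61.5, 113 and 228 CPM against 38.7, 64.3 and 46.0 (log2 fold change 1.42 ± 0.36, edgeR adjusted p = 0.0511), Slc12a1 at 13.9, 33.7 and 88.0 against 11.3, 10.7 and 13.0 (1.95, adjusted p = 0.0624) and Wfdc15b at 47.6, 154 and 245 against 27.4, 55.3 and 63.1 (1.61, adjusted p = 0.0638). None of the 4 genes tested was called by edgeR, where 3.91% of genes were called, 2.74% higher and 1.17% lower, and 1245 genes had an unadjusted p under 0.05. Warm replicate 1 lay nearest the cold libraries, and without it Umod (adjusted p = 0.00594), Slc12a1 (0.00881) and Wfdc15b (0.00183) were called higher, as was Umod without warm replicate 2 (adjusted p = 0.0459).

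After cryopreservation the non-epithelial level of Umod was lower in the cold and higher in the warm C57 arm. In the cold arm Umod fell to 18.1, 15.8 and 22.0 CPM (log2 fold change -1.31 ± 0.25, edgeR adjusted p = 0.0056), the 1 gene called of 4 tested where 8.00% of genes were called, 4.15% higher and 3.85% lower, and without fresh replicate 2 (0.0515) or in a fit over the 4 groups of fresh and cryopreserved cells (-1.31, adjusted p = 0.103) it was not called. Without fresh replicate 1 Egf (-1.76, adjusted p = 0.0184) and Wfdc15b (-1.08, adjusted p = 0.0117) were also called lower. With library totals the split of all genes turned from 371 higher and 344 lower to 238 higher and 515 lower. In the warm arm Umod rose to 594, 265 and 386 (1.79 ± 0.38, adjusted p = 0.0154), Egf from 19.8, 44.4 and 67.3 to 442, 161 and 189 (2.70 ± 0.43, adjusted p = 0.00323) and Slc12a1 to 178, 81.6 and 118 (1.63 ± 0.43, adjusted p = 0.0389). All stored warm libraries lay above the fresh ones for Umod and Egf.

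In the warm arm 4 of 6 genes were called, all higher, with Ppp1r1b at 1.77 ± 0.44 (edgeR adjusted p = 0.0279), where 9.58% of genes were called, 5.95% higher and 3.63% lower. With library totals the split of all genes turned from 446 higher and 272 lower to 239 higher and 572 lower, and Slc12a1 was not called (1.45, adjusted p = 0.0584). In the fit over 4 groups Wfdc15b was called (1.40, adjusted p = 0.0314) and Ppp1r1b was not (1.81, adjusted p = 0.138). With the suspension as a block Slc12a1 (1.59, adjusted p = 0.069) and Ppp1r1b (1.73, adjusted p = 0.065) were not called. Umod was not called without fresh replicate 1 or 2 or cryopreserved replicate 1 (0.053 to 0.0585), Slc12a1 without fresh replicate 1 or 2 or cryopreserved replicate 1 or 3 (0.105 to 0.134), and Ppp1r1b without any fresh replicate or cryopreserved replicate 1 or 2 (0.0651 to 0.108), while Egf was called without each library in turn. As a percentage of the thick limb level, Umod stood at 0.311% in cold and 3.56% in warm cryopreserved cells.

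Methanol fixation raised the non-epithelial level in the cold arm. Wfdc15b went from 27.4, 55.3 and 63.1 to 179, 255 and 229 CPM (log2 fold change 2.14 ± 0.26, edgeR adjusted p = 0.000635), Umod from 38.7, 64.3 and 46.0 to 111, 266 and 185 (1.94 ± 0.29, adjusted p = 0.0011) and Egf from 8.07, 25.0 and 25.0 to 25.6, 117 and 68.1 (1.91 ± 0.44, adjusted p = 0.00857). All 3 genes tested were called, where 27.1% of genes were, 13.5% higher and 13.6% lower, and Egf was not called without fixed replicate 2 (1.37, adjusted p = 0.0877) or in a fit over the 4 groups of fresh and fixed cells (1.83, adjusted p = 0.0845). In the warm arm replicate 3 of the fixed cells stood apart, with Umod at 163, 244 and 1466, Egf at 52.1, 54.2 and 848 and Slc12a1 at 52.1, 64.3 and 300.3. None of the 4 genes tested was called there by edgeR, where 13.1% of genes were, 5.04% higher and 8.01% lower, with Umod at 1.80 (adjusted p = 0.0981) and Wfdc15b at 1.53 (adjusted p = 0.0814). With the suspension as a block both were called, Umod at 1.68 (adjusted p = 0.017) and Wfdc15b at 1.67 (adjusted p = 0.0083), the fit over 4 groups called Wfdc15b (1.53, adjusted p = 0.0428), and Umod was called without fixed replicate 1 (2.26, adjusted p = 0.0477).

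In nuclei against cells the non-epithelial level of Slc12a1 rose in both sexes, from 3.78, 24.2 and 65.6 to 393, 588 and 368 CPM in males (log2 fold change 4.05 ± 0.43, edgeR adjusted p = 7.67e-10) and from 69.6, 77.1 and 47.9 to 511, 408 and 305 in females (2.29 ± 0.20, adjusted p = 6.64e-08). The non-epithelial barcodes of male cells held 264622, 248385 and 91414 UMIs of all genes. Slc12a1 thus rested on few UMIs there, under the floor of 3 UMIs in replicate 1. The size of the male fold depends on these few UMIs. Egf rose by 2.36 ± 0.40 in males (adjusted p = 4.34e-06) and 1.55 ± 0.15 in females (adjusted p = 3.07e-07). Umod rose in males, from 83.1, 165 and 252 to 622, 346 and 348 (1.34 ± 0.31, adjusted p = 0.000286), and stood at 226, 331 and 134 against 363, 309 and 216 in females (-0.01, adjusted p = 0.983). Wfdc15b fell in females from 95.3, 121 and 67.5 to 38.9, 29.1 and 21.8 (-2.04 ± 0.22, adjusted p = 8.7e-07) and differed by -0.68 in males (adjusted p = 0.0593), where it was called lower without cell replicate 1 (-1.22, adjusted p = 0.00208) or nuclei replicate 1 (-1.15, adjusted p = 0.0157). Non-epithelial barcodes numbered 860, 256 and 235 in the libraries of male nuclei and 581, 461 and 283 in those of male cells. The paper found no T, B or NK cells in nuclei. The part of the mix of types in these differences was not tested.

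In all, 3 of 4 genes tested were called in males, where 78.7% of genes were, 46.5% higher and 32.2% lower, and the median log2 fold change over all genes was 0.52. In females 5 of 7 were called, where 81.7% of genes were, 41.4% higher and 40.4% lower, among them Tmem207 (2.22 ± 0.49, edgeR adjusted p = 0.000792) and Ptger3 (2.04 ± 0.29, adjusted p = 1.35e-05), and with library totals Kcnj1 was called as well (0.65, adjusted p = 0.0135). With library totals the medians were 0.88 in males and 0.42 in females. Between nuclei protocols, Wfdc15b (1.52 ± 0.17, adjusted p = 6.07e-05) and Umod (0.99 ± 0.16, adjusted p = 0.000947) were higher in 1x2000g than in 3x500g nuclei, the 2 called of 9 where 19.5% of genes were called, 12.4% higher and 7.15% lower. Without 1x2000g replicate 2 Slc12a1 was called lower (edgeR, -0.59, adjusted p = 0.0373). In sucrose nuclei 3 of 8 were called, where 18.7% of genes were, 10.4% higher and 8.29% lower, with Wfdc15b at 0.76 ± 0.18 (adjusted p = 0.0109), Umod at 0.49 ± 0.14 (adjusted p = 0.03) and Egf at -0.33 ± 0.10 (adjusted p = 0.0365), and each of the 3 was lost when some single library was left out (0.0569 to 0.138).

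In female cells cryopreservation lowered the non-epithelial level of Wfdc15b, from 95.3, 121 and 67.5 to 34.2, 21.4 and 34.7 CPM (log2 fold change -1.67 ± 0.22, edgeR adjusted p = 0.000952), of Slc12a1, from 69.6, 77.1 and 47.9 to 24.8, 7.84 and 33.9 (-1.58 ± 0.31, adjusted p = 0.0126), and of Kcnj1 (-1.98 ± 0.39, adjusted p = 0.0129). No stored library reached the fresh range for Wfdc15b and Slc12a1. These were 3 of 5 genes tested, where 2.51% of genes were called, 0.451% higher and 2.06% lower, and without fresh replicate 2 Slc12a1 (0.0658) and Kcnj1 (0.0693) were not called. Kcnj1 was also lost without cryopreserved replicate 2 or 3. Umod (-1.41, edgeR adjusted p = 0.0142, and -1.55, adjusted p = 0.0259) and Egf (-1.21, adjusted p = 0.0337, and -1.33, adjusted p = 0.0412) were called lower without fresh replicate 3 and without cryopreserved replicate 3.

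The share of barcodes with a UMI was compared after thinning each barcode to 500 UMIs, which left out shallower ones. Of thick limb-like barcodes this left out 55 of 323 in C57 cold fresh cells and 267 of 687 in C57 warm fresh cells. Slc12a1 had a UMI in 88.3% of thinned thick limb-like barcodes of C57 cold fresh cells (87.8 to 88.8%; 84.5% before thinning) and in 75.3% of those of warm fresh cells (71.8 to 78.9%; 64.5% before). In thick limb-like nuclei it had one in 99.7% of thinned barcodes in males and 99.9%, 99.7% and 99.6% in females. Umod had one in 88.4% of thinned barcodes in C57 cold fresh cells and in 71.7% of male and 56.5% of female 3x500g nuclei. In male and female 3x500g nuclei Slc12a1 was thus seen in more thick limb-like barcodes than Umod, while in C57 cold fresh cells the shares of both were alike within 1 percentage point.

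At least 1 UMI of any of the 9 genes was found in 6.4% of thinned non-epithelial barcodes of C57 cold fresh cells (3.81 to 7.87%), with Umod alone in 1.65%. The share was 11.4% in warm fresh, 3.43% in cold cryopreserved, 24.0% in warm cryopreserved, 19.9% in cold fixed and 26.3% in warm fixed cells. It was 16.9% in male cells and 40.1% in male nuclei, and 15.0% in female cells, 6.6% in cryopreserved female cells and 35.2%, 38.5% and 34.6% in the female nuclei. Before thinning the share ranged from 7.7% in cold cryopreserved C57 cells to 80.9% in female 1x2000g nuclei, with median depths of non-epithelial barcodes of 1014.5 to 1271.5 and 1761.5 to 1781.5 UMIs. For male cells the thinned share rests on 373 barcodes, since 952 were shallower.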

How the data were processed

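The 54 libraries were assigned to 18 groups of 3 from the labels. For 10x libraries the authors deposited raw UMI counts for each gene and barcode, after Cell Ranger alignment, EmptyDrops, bounds on genes and mitochondrial share per barcode and removal of outliers. For nuclei mitochondrial genes were removed, and the counts of male cells held none either. For bulk libraries the authors deposited featureCounts read counts per gene after Trim Galore, TagDust2, STAR and Picard; the strand setting and use of duplicates are not given in the sources used here, so reads shared with overlapping genes or the paralog of Wfdc15b are uncertain. The submitters' processing notes name Cell Ranger 2.1.1 and STAR 2.6.1a. Depth was the sum of deposited counts (983522 to 35170947 UMIs, 2326998 to 31093949 bulk counts), and precision for rare genes is set by a floor of 3 UMIs, which covers counting error only.

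Barcodes were seeded by marker scores and assigned by multinomial likelihood in 3 passes, without the 9 genes. Listed stress and hemoglobin genes and Malat1, Neat1 and Xist were also left out of the likelihood. The male cells had few seeds, so their first pass used class profiles of the C57 cells and later passes their own. No doublet caller was run. Sums of UMIs by class in each library, and bulk counts, entered edgeR 4.0.16 under R 4.3.3, whose quasi-likelihood test was run over all genes (TMM, filterByExpr, Benjamini-Hochberg adjustment, threshold 0.05) within each pair of groups. TPM used exon-union lengths of GENCODE vM21 (GRCm38). Tests were checked on simulated data. Alternatives were RLE factors, no filter, DESeq2 1.42.0, a 2-fold criterion, a wider margin, the deepest 5% left out, thinning to 1000 UMIs, and each library left out in turn; the replicate block, scaling by library totals and the fits over 4 groups with tests of differences between effects were added after seeing the data. Stored and fresh C57 libraries bear the name of the same suspension. They were paired only in the replicate block, and the main tests of storage were unpaired. Their same-numbered deviations from the group means had correlations of -0.05 to 0.22. Named were the 9 genes, up to 3 called genes of each of 4 pathway lists with the largest change, and the 5 genes most like the members. The values of some genes of the pathway lists are not reported here. The members, lists and markers were chosen with earlier results of these data known. Replicates were separate mice.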

Additional observations from a re-analysis of the deposited data

Results flagged for a closer look

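Effects of the same treatment differed between experiments or suspensions for 14 pairs of gene and barcode class, each by a test of the difference itself in 1 edgeR fit over 4 groups, with p adjusted over all genes. These fits share 1 scaling over 4 groups, so their effects differ from those given above. In thick limb-like nuclei the effects of the 9 genes moved most in females, for Slc12a1 from 1.02 to 1.56 and for Egf from 0.29 to 0.83, and less in males, from 0.81 to 0.96 and from -0.27 to -0.13. The sizes of the differences given below therefore depend on the scaling, and that of Slc12a1 is 0.61 here where the separate effects are 1.02 and 0.81. All groups held 3 libraries, and single libraries were not tested for standing apart within a group.

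In thick limb-like barcodes the effect of cryopreservation was higher in the warm than in the cold C57 arm for Egf by 1.65 ± 0.31 on the log2 scale (edgeR adjusted p = 0.00315; effects -1.32 cold and 0.33 warm) and for Slc12a1 by 1.08 ± 0.27 (adjusted p = 0.0357; -1.18 and -0.10). For Ptger3 the difference was 6.94 (adjusted p = 0.0217), a size that depends on the prior count because the cold stored libraries held no UMI. Here 1.93% of genes differed. The 60 barcodes of the cold stored group limit these values. In non-epithelial barcodes the same difference was 3.10 ± 0.57 for Umod (adjusted p = 0.0217; -1.31 cold and 1.79 warm) and 4.16 ± 0.79 for Egf (adjusted p = 0.0252; -1.47 and 2.69), where 0.427% of genes differed.

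The effect of nuclei against cells differed between the Balb/c females and males in thick limb-like barcodes for 6 of 9 genes, where 13.8% of genes did. The difference, female minus male, was -3.04 ± 0.52 for Tmem207 (edgeR adjusted p = 7.1e-05; a size that depends on the prior count, with 2 of 3 libraries of male cells at 0), -1.45 ± 0.29 for Ppp1r1b (adjusted p = 0.00048), -1.13 ± 0.26 for Umod (adjusted p = 0.00236), -0.79 ± 0.22 for Wfdc15b (adjusted p = 0.0161), 0.96 ± 0.21 for Egf (adjusted p = 0.00156) and 0.61 ± 0.21 for Slc12a1 (adjusted p = 0.045). Umod and Wfdc15b thus fell further in females. In non-epithelial barcodes it was -1.54 ± 0.46 for Umod (adjusted p = 0.0172), -1.90 ± 0.56 for Slc12a1 (adjusted p = 0.016) and -1.60 ± 0.42 for Wfdc15b (adjusted p = 0.00832), where 23.4% of genes differed. The size for Slc12a1 depends on few UMIs in the non-epithelial barcodes of male cells. The experiments also differed in chemistry, age and depth, which cannot be told apart from sex.

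For methanol fixation no gene differed between the arms by edgeR in thick limb-like or in non-epithelial barcodes (0.00% of genes in each), with 162 and 560 genes at an unadjusted p under 0.05.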

How the results depend on the processing

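None of the 9 genes changed direction under an alternative in a comparison in which it was called. Differences that were not called changed sign under some alternatives, and library totals turned the split of all genes after cryopreservation as given above. With DESeq2 2 genes were called in intact kidney against cold suspensions, 2 in warm cryopreserved thick limb-like and 2 in warm cryopreserved non-epithelial barcodes. With a 2-fold criterion added, 0 were called in both bulk comparisons, 2 in thick limb-like barcodes after warm dissociation, 0 after warm cryopreservation, 1 after warm fixation, 4 in male and 5 in female nuclei, 1 in 1x2000g and 0 in sucrose nuclei, and in non-epithelial barcodes 1 in 1x2000g and 0 in sucrose nuclei. Without a filter on low counts, 1 was called in non-epithelial barcodes after warm dissociation, 2 after warm fixation and 6 in male nuclei. With a wide margin of assignment 1 was called in non-epithelial barcodes after warm dissociation in place of 0, and without the deepest 5% of barcodes 0 in cold cryopreserved thick limb-like barcodes. RLE factors kept 157 of 160 gene results on their side of the threshold, library totals in place of TMM kept 153 of 160 and 1 scaling over 4 groups kept 73 of 81. Thinning to 1000 UMIs in place of 500 moved 181 of 258 shares by more than the spread between libraries.

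With each library left out in turn, the number of the 9 genes called ranged from 6 to 9 for warm bulk suspensions, 0 to 3 for intact kidney, and in thick limb-like barcodes 1 to 6 for warm dissociation, 0 to 5, 2 to 4 and 2 to 4 for cold, warm and female cryopreservation, 2 to 4 and 2 to 3 for cold and warm fixation, 5 to 7 and 8 to 9 for male and female nuclei, 2 to 3 for 1x2000g and 4 to 7 for sucrose nuclei. In non-epithelial barcodes the ranges were 0 to 3, 0 to 3, 1 to 3, 1 to 5, 2 to 4, 0 to 1, 3 to 4, 5 to 5, 2 to 3 and 1 to 3 in the same order.

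With the suspension number as a replicate block, 2 genes were called in non-epithelial barcodes after warm cryopreservation and 2 after warm fixation, where 395 genes were called in all in place of 673. Warm and cold suspensions shared only a number, with correlations of same-numbered deviations down to -0.02 in thick limb-like and -0.04 in non-epithelial barcodes, and there the block called 4 genes in non-epithelial barcodes. Apart from the calls given above and those of warm against cold cells, the block changed no call. For the Balb/c groups and the bulk libraries no paired analysis was possible. Their replicates were numbered in accession order. No source used here says which of their libraries in different groups came from the same mouse or suspension.

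The number of all genes called moved by more than 1.5 times without the filter for bulk warm suspensions (1224 to 1912), thick limb-like warm cells (134 to 211), cryopreserved cold (97 to 240), warm (347 to 586) and female cells (350 to 533) and non-epithelial male nuclei (3997 to 7034). With DESeq2 it moved in thick limb-like barcodes for warm cryopreserved (347 to 176) and cold and warm fixed cells (520 to 211 and 243 to 122), and in non-epithelial barcodes for cold fixed cells (1939 to 996), 1x2000g (2504 to 1567) and sucrose nuclei (2412 to 1397). Without the deepest barcodes it moved for cold and female cryopreserved thick limb-like cells (97 to 22 and 350 to 192). With a 2-fold criterion it fell by more than 1.5 times in 14 of 22 comparisons. The cause was not tested.

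With 1 library left out, the number of all genes called moved by more than 1.5 times in the bulk for warm suspensions (1224 to 776 without warm replicate 3). In thick limb-like barcodes it moved for warm dissociation (134 to 46 and 87 without cold replicates 2 and 3), cold cryopreservation (97 to 60 without fresh 2, 41 and 43 without cryopreserved 1 and 2), warm cryopreservation (347 to 231 and 176 without cryopreserved 2 and 3), cold fixation (520 to 224 without fresh 2, 341 and 305 without fixed 2 and 3), warm fixation (243 to 159 without fresh 3, 153, 82 and 153 without fixed 1, 2 and 3), male nuclei (4157 to 2702 and 2700 without nuclei 2 and 3) and female cryopreservation (350 to 200 and 211 without fresh 1 and 3, 164 and 219 without cryopreserved 2 and 3). In non-epithelial barcodes it moved for warm dissociation (310 to 150 without cold 2), cold cryopreservation (715 to 412 and 390 without fresh 2 and 3, 426 without cryopreserved 2), warm cryopreservation (718 to 444, 461 and 382 without fresh 1, 2 and 3, 426 without cryopreserved 3), cold fixation (1939 to 970 without fresh 2, 1116 and 1259 without fixed 2 and 3), warm fixation (673 to 259, 419 and 219 without fresh 1, 2 and 3, 430 without fixed 1), female cryopreservation (256 to 142 without fresh 2, 139 and 162 without cryopreserved 2 and 3) and sucrose nuclei (2412 to 1295 without 3x500g 3, 1113 and 1304 without sucrose 1 and 2).

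The depth limits what can be said of Bsnd, Tmem207, Ptger3 and Ppp1r1b, which in C57 and male cells rest on few UMIs per library. The same holds for Slc12a1 in non-epithelial barcodes of male cells.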
